A study of Mus musculus with 6 samples.

Results

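The NuRD complex (nucleosome remodelling and deacetylase) joins 2 enzyme activities in one assembly. A CHD helicase moves nucleosomes, a deacetylase removes acetyl groups from histones, MTA proteins form the scaffold that holds and activates the deacetylase, and an MBD protein links the parts and, for MBD2, brings the complex to methylated DNA. Each position is filled by 1 of several paralogs, so a cell can assemble NuRD in different compositions. In red cell and platelet precursors the complex is known as the partner of FOG1, the cofactor of the transcription factor GATA1, which recruits NuRD through its N-terminal end.

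The subunits described are the helicases Chd3, Chd4 and Chd5, the deacetylases Hdac1 and Hdac2, the scaffold proteins Mta1, Mta2 and Mta3, and Mbd2 and Mbd3, 10 genes in all. A gene was represented by the probe sets that carry its symbol alone in the platform table, and where there were several, by that with the greatest mean of the 6 arrays. In this way 9 of the 10 genes had a value, among 19661 genes tested. Hdac1 was not analysed here.

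The cells were megakaryocyte-erythroid progenitors (MEP), the marrow precursors of red cells and platelets, sorted from B6.129 mice by the absence of lineage markers, Sca1 and CD34, by Kit, and by low FcγRII/III. The comparison was between 3 arrays of Fog1+/+ cells, with intact Fog1, and 3 arrays of Fog1ki/ki cells, homozygous for a Fog1 knock-in. The change made by the knock-in, the age of the mice and the number pooled per array are not stated in the labels. From general knowledge of the study, the knocked-in FOG1 no longer binds NuRD, and the question is which genes depend on that contact. The labels call the arrays biological replicates. The allele is present from the germ line, so effects in progenitors and in the cells before them are not separated by this design.

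Values are RMA values on the log2 scale, where a difference of 1 is a doubling. The arrays' medians over genes lay between 6.16 and 6.31, and their correlations across genes, which are not independent replicates, between 0.988 and 0.994. All 9 measured MEP markers, among them Gata1 and Klf1, lay above the lower quartile of every array, and Cd34 lay below it. Replicate 3 of each genotype had low values of the Y-linked gene Uty (3.96 and 3.85, with 8.18 to 8.62 elsewhere), so the arrays with and without Y-linked signal were balanced between genotypes. In these bulk samples fewer cells of a type and less RNA per cell cannot be told apart.

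Of the 9 measured subunits, 1 rose in Fog1ki/ki, 0 fell and 8 did not pass at a limma adjusted p under 0.05, where 0.773% of all genes passed in either direction and 0.376% passed as higher. The subunit that rose was the helicase Chd3. The other 8 lay slightly lower, with log2 differences between -0.27 and -0.06. By limma's unadjusted p under 0.05, 1 was higher (Chd3) and 1 lower (Chd4), where 9.57% of all genes passed in either direction. That Chd3 was the 1 subunit to pass was known when these genes were chosen.

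**Figure D1:**
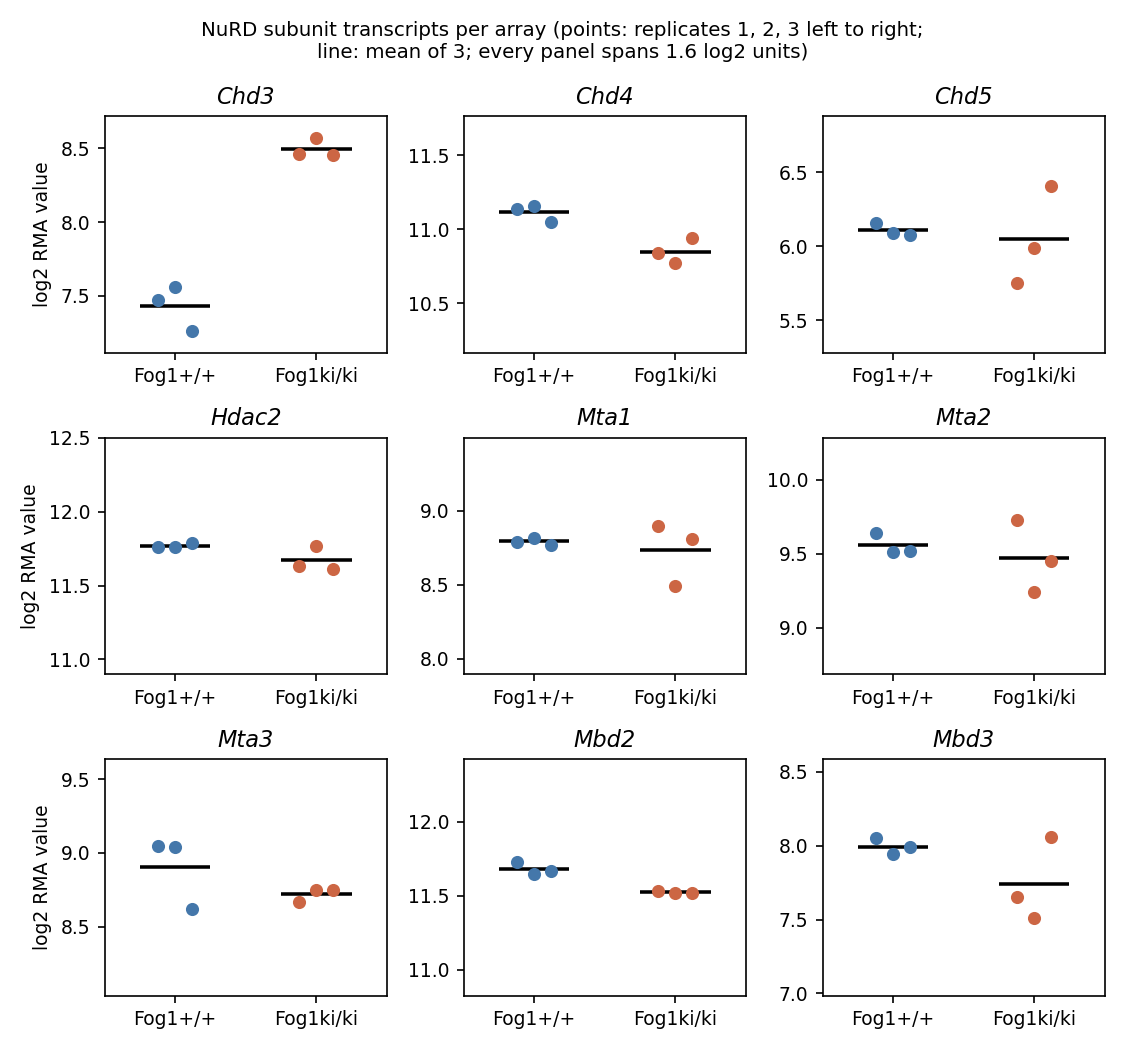
Log2 RMA values of the 9 measured NuRD subunits in each array, with Fog1+/+ in blue and Fog1ki/ki in orange, replicates 1 to 3 from left to right and a line at the mean of 3. The Fog1ki/ki arrays of Chd3 (8.45 to 8.57) lie above all Fog1+/+ arrays (7.26 to 7.56), while those of Chd4 and Mbd2 lie just below and those of the other 6 subunits overlap.

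The CHD helicases supply the motor of the complex. Chd3 and Chd4 are the broadly used forms, also called Mi-2 alpha and Mi-2 beta, and Chd5 is best known from neurons and testis. Chd3 (probe set 10387316) measured 7.47, 7.56 and 7.26 in Fog1+/+ and 8.46, 8.57 and 8.45 in Fog1ki/ki. The genotypes were separated by 0.89 between their nearest arrays, and the 3 Fog1ki/ki values lay within 0.12 of each other. The log2 difference was 1.06 (SE 0.10, 95% interval 0.83 to 1.30, n = 3 each, limma adjusted p = 0.00280), a 2.09-fold higher value.

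Chd4 (probe set 10541803), the NuRD helicase best studied in blood precursors, measured 11.14, 11.16 and 11.05 in Fog1+/+ and 10.84, 10.77 and 10.94 in Fog1ki/ki. All 3 Fog1ki/ki arrays lay below all 3 Fog1+/+ arrays, by 0.11 at the closest. The log2 difference, -0.27 (SE 0.09, 95% interval -0.47 to -0.06), did not pass over all genes (limma adjusted p = 0.353). It was -0.18 with quantile normalization repeated and -0.32 with arrays centred on their medians, and passed with neither.

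Chd5 measured 6.16, 6.09 and 6.08 in Fog1+/+ and 5.75, 5.99 and 6.41 in Fog1ki/ki. The Fog1ki/ki values lay on both sides of the Fog1+/+ values and were spread more widely (SD 0.33 against 0.04). The log2 difference was -0.06 (limma adjusted p = 0.945, SE 0.15), and it turned to 0.09 without Fog1ki/ki replicate 1. The Chd5 values, 5.75 to 6.41, lay close to the arrays' medians or below, and whether the gene was expressed was not tested.

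The balance between paralogs was measured as the log2 value of one minus that of the other within each array, and is given relative to its Fog1+/+ mean, because the levels of different probe sets cannot be set against each other. For Chd3 minus Chd4 the values were 0.02, 0.09 and -0.10 in Fog1+/+ and 1.31, 1.49 and 1.20 in Fog1ki/ki. The shift towards Chd3 was 1.33 (SE 0.10), a 2.51-fold change of the ratio, and was made up of the increase of Chd3 and the smaller, unpassed difference of Chd4. For Chd3 minus Chd5 they were -0.01, 0.15 and -0.14 against 1.39, 1.26 and 0.72, a shift of 1.12 (SE 0.22). In both pairs no Fog1ki/ki array overlapped a Fog1+/+ array.

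Chd4 minus Chd5 shifted by -0.21 (SE 0.17), with overlapping arrays, between 0.08 and -0.48 in Fog1ki/ki and between -0.04 and 0.06 in Fog1+/+. With 3 arrays per genotype the exact two-sided permutation test has a smallest possible p of 0.1, and both Chd3 pairs reached that smallest value (0.35 after adjustment over the 7 pairs compared), against p = 0.4 for Chd4 minus Chd5. By this test no balance could pass a threshold of 0.05.

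**Figure D2:**
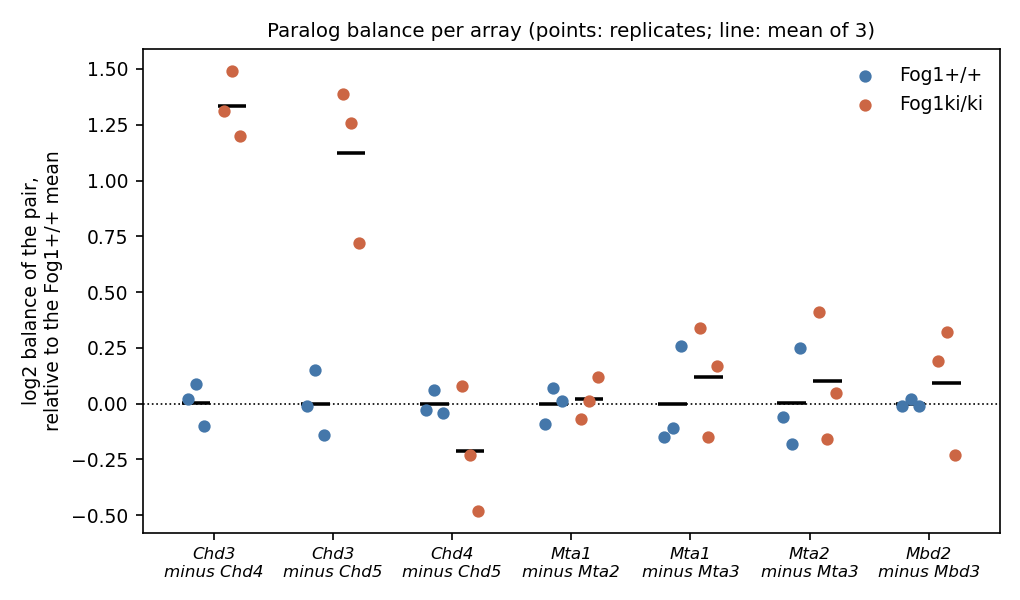
Log2 balance of each of 7 paralog pairs per array, relative to the pair's Fog1+/+ mean, with Fog1+/+ in blue, Fog1ki/ki in orange and lines at the means of 3. Both pairs with Chd3 shift upwards, by 1.33 and 1.12, and the Fog1ki/ki points of the other 5 pairs overlap the Fog1+/+ points.

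The deacetylase position is filled by the close paralogs HDAC1 and HDAC2, which also serve the SIN3 and CoREST complexes. Hdac2 measured 11.76, 11.76 and 11.79 in Fog1+/+ and 11.63, 11.77 and 11.61 in Fog1ki/ki. The genotypes overlapped through Fog1ki/ki replicate 2. The log2 difference was -0.10 (SE 0.09, 95% interval -0.30 to 0.10, limma adjusted p = 0.798). It was -0.02 with quantile normalization repeated and -0.15 with arrays centred on their medians. Without Hdac1 the balance of the deacetylases was not analysed here.

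Among the MTA scaffold proteins no difference passed and the genotypes overlapped in each. Mta1 measured 8.79, 8.82 and 8.77 in Fog1+/+ and 8.90, 8.49 and 8.81 in Fog1ki/ki, a log2 difference of -0.06 (SE 0.12). Mta2 measured 9.64, 9.51 and 9.52 against 9.73, 9.24 and 9.45, a log2 difference of -0.08 (SE 0.13). In both genes Fog1ki/ki replicate 1 was the highest and Fog1ki/ki replicate 2 the lowest of the 6 arrays. Without Fog1ki/ki replicate 2 their log2 differences turned to 0.06 and 0.03, and with quantile normalization repeated they were 0.0014 and 0.0028, so neither has a settled direction.

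Mta3, first described as an estrogen-dependent subunit in breast epithelium and also found with BCL6 in B cells, measured 9.05, 9.04 and 8.62 in Fog1+/+ and 8.67, 8.75 and 8.75 in Fog1ki/ki. Fog1+/+ replicate 3 was the lowest array and the other Fog1+/+ arrays the highest. The log2 difference was -0.18 (limma adjusted p = 0.721, SE 0.13). It was -0.32 without Fog1+/+ replicate 3 and -0.11 without Fog1+/+ replicate 1. A dimmer Mta3 probe set (10447188) measured 6.40, 6.30 and 6.23 against 6.26, 6.38 and 6.44, a log2 difference of 0.05 (SE 0.09), so its sign was opposite, and neither passed.

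The MTA balances moved little. Mta1 minus Mta2 shifted by 0.02 (SE 0.07, exact permutation p = 0.8), with Fog1+/+ arrays between -0.09 and 0.07 and Fog1ki/ki arrays between -0.07 and 0.12. Mta1 minus Mta3 shifted by 0.12 (SE 0.19, exact permutation p = 0.7) and Mta2 minus Mta3 by 0.10 (SE 0.21, exact permutation p = 0.6). In both pairs with Mta3 the arrays of each genotype covered ranges of 0.41 to 0.57, wider than the shifts.

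MBD2 and MBD3 occupy the same position in separate NuRD assemblies, and of these MBD2 binds methylated CpG sites while mammalian MBD3 has largely lost that ability. Mbd2 measured 11.73, 11.65 and 11.67 in Fog1+/+ and 11.53, 11.52 and 11.52 in Fog1ki/ki. The genotypes did not overlap, and the Fog1ki/ki arrays were nearly identical (SD 0.0058). The log2 difference was -0.16 (SE 0.08, 95% interval -0.35 to 0.03) and did not pass (limma adjusted p = 0.611). It was -0.08 with quantile normalization repeated and -0.21 with arrays centred on their medians.

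Mbd3 measured 8.05, 7.94 and 7.99 in Fog1+/+ and 7.65, 7.51 and 8.06 in Fog1ki/ki. Fog1ki/ki replicate 3 was the highest of all arrays and the other Fog1ki/ki arrays the lowest. The log2 difference was -0.25 (limma adjusted p = 0.631, SE 0.14), and without Fog1ki/ki replicate 3 it was -0.41 (limma adjusted p = 0.219), against -0.14 without Fog1ki/ki replicate 2. The Mbd2 minus Mbd3 balance shifted by 0.09 (SE 0.17, exact permutation p = 0.7), with Fog1ki/ki arrays at 0.19, 0.32 and -0.23 around Fog1+/+ arrays between -0.01 and 0.02.

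Across the 9 subunits the genotypes did not overlap in 3, of which Chd3 was higher and Chd4 and Mbd2 lower, where 14.8% of all genes did not overlap, 8.31% as higher and 6.53% as lower. The median log2 difference of the 9 was -0.10, against 0.02 over all genes, and 8 of the 9 lay below 0, as did 43.7% of all genes. With quantile normalization repeated 6 of the 9 lay below 0 (49.8% of all genes), and with arrays centred on their medians 8 did (59.0% of all genes). For the 8 subunits other than Chd3 the 95% intervals lay between -0.57 and 0.29, all below the lower bound of Chd3 (0.83). These intervals are per gene and were not widened for the number of subunits.

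The spread between replicates was close to that of other genes, with a median within-genotype SD of 0.15 for the subunits and 0.14 for all genes. It was larger in Fog1ki/ki than in Fog1+/+ in 6 of 9 subunits, as in 64.7% of all genes. Fog1ki/ki replicate 2 was the lowest array, alone or tied, in 5 of the 9 subunits (Chd4, Mta1, Mta2, Mbd2 and Mbd3), while for Chd3 it was the highest.

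**Figure D3:**
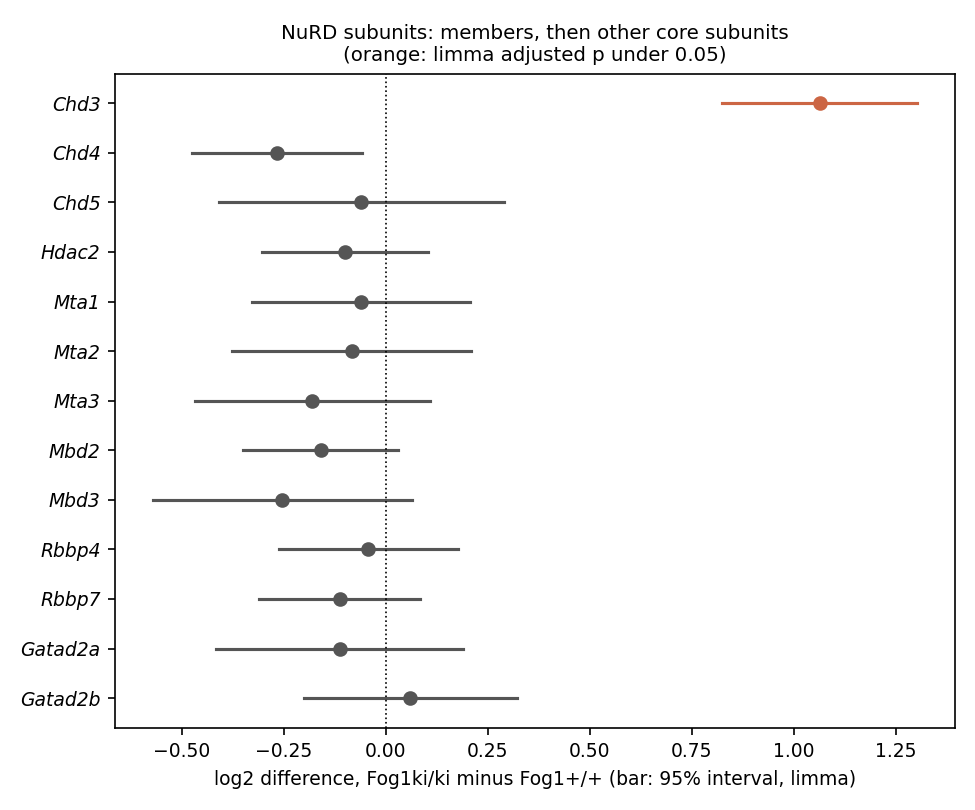
Log2 differences, Fog1ki/ki minus Fog1+/+, with 95% intervals from limma, for the 9 measured members and 4 further core subunits. Chd3 lies at 1.06 and all other subunits lie between -0.27 and 0.06, with intervals that do not reach that of Chd3.

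The remaining core of NuRD consists of the histone-binding chaperones Rbbp4 and Rbbp7, through which FOG1 is known to contact the complex, the GATA-type zinc finger proteins Gatad2a and Gatad2b, which bridge the MBD and CHD parts, and the small subunit Cdk2ap1, which was not analysed here. None of the 4 measured passed in limma (0, also at an unadjusted p under 0.05), where 0.773% and 9.57% of all genes did. Rbbp4 had a log2 difference of -0.04 (SE 0.10), Rbbp7 one of -0.11 (SE 0.09), Gatad2a one of -0.11 (SE 0.13) and Gatad2b one of 0.06 (SE 0.12). Rbbp7 had the smallest p, with 11.50, 11.39 and 11.43 in Fog1+/+ and 11.33, 11.37 and 11.28 in Fog1ki/ki (limma adjusted p = 0.747). The sign of Rbbp4 turned with quantile normalization repeated (0.04), and that of Gatad2b without Fog1ki/ki replicate 1 (-0.04). Gatad2a lay between -0.27 (without Fog1ki/ki replicate 1, limma adjusted p = 0.263) and -0.04 with 1 array left out.

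Proteins of the same families outside NuRD showed no passing difference. Of all genes 0.773% passed and 9.57% had an unadjusted p under 0.05, so counts of 0 in lists this short are near those shares. Of 7 other CHD helicases 0 passed in limma, also at an unadjusted p under 0.05, with a median log2 difference of -0.15 and Chd1l nearest the threshold at -0.22 (limma adjusted p = 0.623, SE 0.12). Of 3 other measured MBD proteins 0 passed in limma, also at an unadjusted p under 0.05, with Mbd4, a DNA repair glycosylase, nearest at -0.14 (limma adjusted p = 0.778, SE 0.12). Among the CHD genes tested Chd3 was thus the 1 that passed, and the next highest log2 difference was that of Chd7 (0.23, SE 0.23). Chd7 values ran from 6.87 to 7.90 within Fog1+/+.

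Factors that bring NuRD to DNA were measured as a list of 12 zinc finger proteins, among them the FOG, SALL, BCL11 and Ikaros families. None passed in limma (0, with 1 higher, Sall2, at an unadjusted p under 0.05), and the median log2 difference was 0.08. Of all genes 0.773% passed and 9.57% had an unadjusted p under 0.05, in either direction. Zfpm1, which encodes FOG1, lay at 0.05 on the log2 scale (limma adjusted p = 0.948, SE 0.13), with overlapping arrays and a sign that turned with arrays centred on their medians and without Fog1+/+ replicate 2 or Fog1ki/ki replicate 3. Gata1 lay at -0.29 (limma adjusted p = 0.435, SE 0.11). It measured 8.54, 8.56 and 8.57 in Fog1+/+ and 8.47, 8.09 and 8.24 in Fog1ki/ki. The genotypes of Gata1 thus did not overlap, as lower in Fog1ki/ki, where 6.53% of all genes did so. Sall2 measured 4.94, 5.11 and 4.90 against 4.98, 5.45 and 5.68, a log2 difference of 0.39 (limma adjusted p = 0.510, SE 0.17).

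Genes known as targets of GATA1 and FOG1 were also measured. Of 7 repressed genes 1 rose in limma, Gata2, and 6 did not pass, with a median log2 difference of -0.08. By limma's unadjusted p under 0.05, 1 was higher (Gata2) and 2 lower (Vim and Kit). These 3 also did not overlap between genotypes. Of all genes 0.773% passed, 9.57% had an unadjusted p under 0.05 and 14.8% did not overlap, in either direction. Gata2, the GATA factor of earlier progenitors and mast cells, measured 7.16, 7.21 and 7.37 in Fog1+/+ and 8.72, 8.05 and 8.39 in Fog1ki/ki, a log2 difference of 1.14 (limma adjusted p = 0.0164, SE 0.16). With any single Fog1+/+ array or Fog1ki/ki replicate 3 left out, Gata2 no longer passed (limma adjusted p from 0.0579 to 0.0875). The intermediate filament gene Vim and the receptor gene Kit lay lower, at -0.68 (limma adjusted p = 0.128, SE 0.15) and -0.38 (limma adjusted p = 0.232, SE 0.11). Of 8 activated genes none passed in limma (0, with 1 higher, Nfe2, at an unadjusted p under 0.05), with a median of 0.02 and Nfe2 nearest at 0.33 (limma adjusted p = 0.311, SE 0.11).

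**Figure D4:**
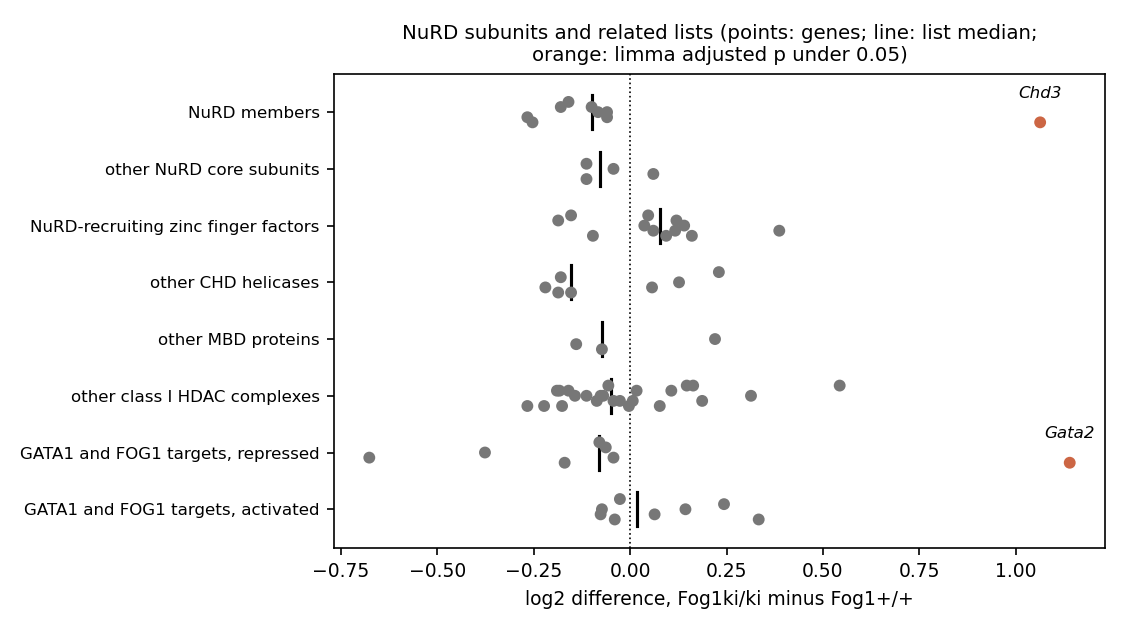
Log2 differences, Fog1ki/ki minus Fog1+/+, of the genes in 8 lists, with list medians as lines and genes past a limma adjusted p of 0.05 in orange. Chd3 (1.06) and Gata2 (1.14) are the 2 genes past the threshold, and the list medians lie between -0.15 and 0.08.

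Chd3 was set beside its neighbours on the chromosome. Of the 5 tested genes on each side, Rnf227, the nearest on one side, rose and the other 9 did not pass, where 0.773% of all genes passed. Rnf227 measured 6.82, 6.45 and 7.10 in Fog1+/+ and 7.88, 7.90 and 7.83 in Fog1ki/ki, a log2 difference of 1.08 (limma adjusted p = 0.0165, SE 0.15). Its Fog1ki/ki arrays were as close together as those of Chd3, and the genotypes did not overlap. The Rnf227 call was lost without Fog1+/+ replicate 1 or any single Fog1ki/ki array (limma adjusted p from 0.0508 to 0.0867), with log2 differences of 1.07 to 1.10.

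The other 9 neighbours had log2 differences between 0.05 (Efnb3) and 0.20 (Dnah2), all above 0, and the genotypes overlapped in each. Of all 19661 genes, 11075 lay above 0, and 14.8% did not overlap between genotypes. They included Naa38, on the other side of Chd3, at 0.09 (SE 0.10), and the histone demethylase gene Kdm6b at 0.14 (SE 0.12). The tested genes nearest to Chd3 on its other side therefore did not share the size of its change. Whether transcripts of Chd3 and Rnf227 share probes or a start was not tested.

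**Figure D5:**
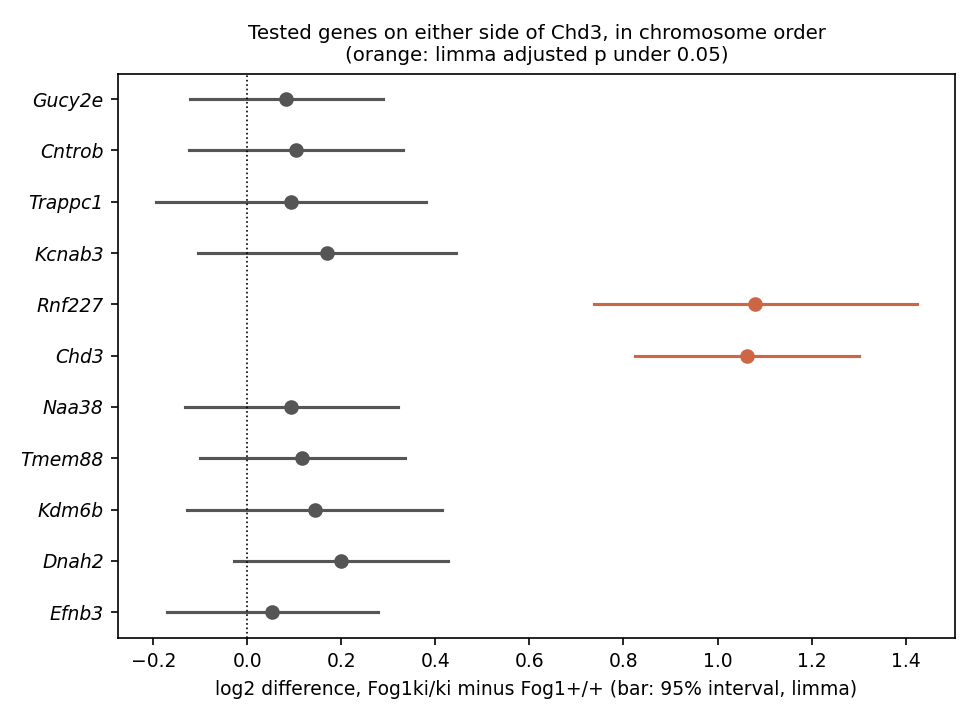
Log2 differences, Fog1ki/ki minus Fog1+/+, with 95% intervals from limma, for Chd3 and the 5 tested genes on each side in chromosome order. Rnf227 (1.08) and Chd3 (1.06) stand beside each other and the remaining 9 genes lie between 0.05 and 0.20.

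The genes whose values over the 6 arrays were most like those of Chd3 were found by the root mean square difference of values centred on each gene's mean. They were the collagen prolyl hydroxylase P4ha3 (root mean square difference 0.10, r = 0.98), the phosphatase Ptpn13 (0.14, r = 0.97), the G protein gamma subunit Gngt2 (0.15, r = 0.96), the SWI/SNF helicase Smarca2 (0.15, r = 0.96) and Ltbp1, which binds latent TGF-beta (0.15, r = 0.96). These correlations are a description over 6 arrays of both genotypes. All 5 genes passed as higher in Fog1ki/ki, at log2 differences of 0.89 to 1.06. Genes chosen by likeness to Chd3 over both genotypes must have high correlations and similar differences, so these values follow from the choice. P4ha3 measured 5.43, 5.68 and 5.44 in Fog1+/+ and 6.63, 6.70 and 6.38 in Fog1ki/ki, and like Chd3 had its highest value of each genotype in replicate 2. Smarca2, a helicase of another remodelling complex, measured 7.60, 7.94 and 7.59 against 8.78, 8.68 and 8.41. Its call was lost with arrays centred on their medians (limma adjusted p = 0.0520) and without any 1 of Fog1+/+ replicates 1 and 3 or Fog1ki/ki replicates 1 and 2. Those of Gngt2 and Ptpn13 were each lost without any 1 of 3 single arrays: both without Fog1+/+ replicate 3 or Fog1ki/ki replicate 2, Gngt2 also without Fog1+/+ replicate 1 and Ptpn13 also without Fog1+/+ replicate 2 (limma adjusted p from 0.0601 to 0.101).

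Markers of other cell types were set beside the Chd3 result. Of all 19661 genes, 11075 lay above 0 in log2 difference, and 8.31% did not overlap between genotypes as higher in Fog1ki/ki. In limma 0.773% of all genes passed, and 9.57% had an unadjusted p under 0.05, in either direction. Of 10 mast cell markers 1 rose in limma (Ms4a2) and 9 did not pass, and 4 were higher at an unadjusted p under 0.05. All 10 lay above 0 in log2 difference, and the genotypes did not overlap in 4. Their summed level on the linear scale was 432 to 452 in Fog1+/+ and 710 to 1337 in Fog1ki/ki. Without Ms4a2 and Fcer1a, chains of the IgE receptor, the sums were 382 to 400.2 and 423 to 592. Fcer1a lay at 1.91 on the log2 scale (limma adjusted p = 0.147, SE 0.46). In Fog1+/+ 7 of the 10 lay below the arrays' lower quartiles and in Fog1ki/ki 4 did. Ms4a2 measured 9.15, 8.64 and 7.80 in the Fog1ki/ki arrays, a range of 1.35. The 5 measured basophil and eosinophil markers summed to 192 to 212 in Fog1+/+ and 286 to 355 in Fog1ki/ki. In limma 0 passed, 3 were higher at an unadjusted p under 0.05, and the genotypes did not overlap in 3. Prg2, a granule protein of eosinophils, was nearest at 0.83 (limma adjusted p = 0.177, SE 0.21). Mcpt8 had the largest log2 difference, 1.03 (limma adjusted p = 0.510, SE 0.44), with 7.40, 5.50 and 5.44 in Fog1ki/ki. The 5 measured stem and multipotent progenitor markers summed to 225 to 242 and 251 to 287, with 0 passing in limma (1 higher, the transcription factor gene Hlf, at an unadjusted p under 0.05). Hlf lay at 0.36 (limma adjusted p = 0.292, SE 0.11), and it and Mecom did not overlap between genotypes. The sums of granulocyte and monocyte markers (1764 to 2250 and 1636 to 2058) and of B and T lymphoid markers (397 to 411 and 406 to 457) overlapped between genotypes. In both lists 0 passed in limma (by unadjusted p under 0.05, 0 and 1), with S100a8 at -0.29 (limma adjusted p = 0.625, SE 0.16) and Cd3g at -0.28 (limma adjusted p = 0.348, SE 0.10) nearest. The part of these cell types in the Chd3 difference was not tested.

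The Chd3 difference was also as large in parts of the data. Without both replicates 3, which had little Y-linked signal, it was 1.0 on the log2 scale, but with 2 arrays left per genotype it did not pass (limma adjusted p = 0.0700), and then 24 genes passed instead of 152. Leaving out any 1 array gave 0.98 to 1.13 and the call was kept (limma adjusted p from 0.00820 to 0.0220). The Chd3 minus Chd4 balance lay between 1.25 and 1.40 in all 11 alternatives run. Centring arrays on their medians, a term for the replicate number and averaging probe sets could not change it, and left it at 1.33.

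RefSeq promoter windows of 300 bases ran from 250 before to 50 after a gene's start on GRCm38.p6. Those of Chd3, Hdac1, Mta3 and Mbd2 were not examined. For Chd4, Chd5, Hdac2, Mbd3, Mta1 and Mta2, 8 windows were examined. They were searched on both strands for the GATA factor motif spelled AGATAA or AGATAG or TGATAA or TGATAG, one of which 29.8% of 32851 promoter windows held. Of the 8 windows 1 held it, that of the upstream start of Chd4 at chr6:125095731-125096030 on the plus strand. It is shown because it is the 1 window of the 8 that held the motif. Capitals mark the match, which reads as AGATAA on the other strand and begins at base -187 from the start.

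Chd4 upstream start: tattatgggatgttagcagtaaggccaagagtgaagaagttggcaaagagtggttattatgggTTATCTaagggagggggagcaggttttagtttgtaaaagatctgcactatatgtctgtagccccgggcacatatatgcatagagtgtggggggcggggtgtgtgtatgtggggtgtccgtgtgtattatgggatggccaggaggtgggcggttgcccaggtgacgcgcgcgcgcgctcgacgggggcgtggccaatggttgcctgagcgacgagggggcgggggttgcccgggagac

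The window of the second Chd4 start did not hold these letters. The match is a description of the sequence, no binding was measured, and the Chd4 difference of -0.27 did not pass. The windows of the 6 genes held 17 to 50 CpG sites, against a median of 7 over all windows, and the Chd4 window shown held 17.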

How the data were processed

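RNA of 6 sorted samples was extracted with Trizol, amplified with the WT-Ovation Pico system and hybridised to 1-colour arrays, per the labels' protocols. The authors deposited log2 values per probe set, made with RMA (background correction, quantile normalization and summary over probes), per the submitters' processing notes. Its software is not given in the sources used here. The values' range shows the log2 scale. Quantile normalization can hide shifts common to most genes, and RMA understates differences of dim genes. The number of arrays limits the precision.

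Of 25668 probe sets, 20777 named 1 gene in the platform annotation, 232 several and 4659 none, which gave 19661 genes. The test was limma 3.58.1 under R 4.3.3 (lmFit, eBayes, two-sided, no covariate, Benjamini-Hochberg over all genes, threshold 0.05), with no filter. Paralog balances were compared by exact permutation of 3 against 3 arrays in SciPy 1.17.1. The fit was checked on simulated data. RefSeq tables on GRCm38.p6 gave gene order and promoters.

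Named genes were all members, per list the called genes or the 1 with the smallest p, Zfpm1, Gata1, and for called members 5 neighbours per side and the 5 most similar genes. Chd7, Vim, Fcer1a, Mcpt8, Mecom, Rcor1, Kdm1a and Arid4a were named after their values were seen. The members, lists and alternatives were chosen with earlier results of these data known. Of the 8 paralog pairs planned, 7 could be compared.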

Additional observations from a re-analysis of the deposited data

How the results depend on the processing

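Chd3 was the 1 NuRD subunit called in 17 of 18 alternatives run, and 0 subunits were called without both replicates 3, where 0 genes of the other lists (against 1, Gata2) and 24 of all genes (14 higher, 10 lower, against 152) passed. With an adjusted p under 0.01, 55 of all genes and 0 of the other lists passed. Leaving out each array in turn gave 60 to 134 genes, 1 subunit in each case and 0 to 1 genes of the other lists; all genes numbered 60, 83 and 60 without Fog1+/+ replicate 1, 2 and 3, and 82 without Fog1ki/ki replicate 2. An adjusted p under 0.1 gave 226 genes. Signs turned, with no call, for Mta1 and Mta2 (0.0014 and 0.0028) and Rbbp4 (0.041) with quantile normalization repeated, for Zfpm1 (-0.0067) with arrays centred on their medians and for Rbbp4 (0.025) without both replicates 3. Leaving out 1 array gave log2 differences from -0.24 to 0.09 for Chd5, -0.143 to 0.062 for Mta1, -0.212 to 0.033 for Mta2, -0.10 to 0.01 for Rbbp4, -0.037 to 0.143 for Gatad2b and -0.058 to 0.157 for Zfpm1. Centring arrays on their medians and a term for the replicate number cannot change a balance, and averaging probe sets can change only those with Mta3. With these counted, the 7 balances moved by less than the spread between replicates in all 11 alternatives, although small ones changed sign, as Mbd2 minus Mbd3 between -0.02 and 0.26. The causes were not tested. Same-numbered arrays deviated together with correlations of 0.07, -0.01 and 0.13, and replicate 2 of Fog1+/+ did not correlate best with its own number, so the numbers were not taken as pairs. With the replicate number as a replicate block Chd3 kept its call (limma adjusted p = 0.00532), 1 subunit and 133 genes passed.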

Other observations

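Deacetylase complexes other than NuRD were measured as a list of 26 genes, 24 of them with a value, from the SIN3, CoREST, MiDAC and NCoR complexes, which share HDAC1 and HDAC2 with NuRD or use HDAC3, and with Hdac8. None passed in limma (0, and by unadjusted p under 0.05, 2 higher and 1 lower), and the median log2 difference was -0.05. Of all genes 0.773% passed and 9.57% had an unadjusted p under 0.05, in either direction. The CoREST scaffold gene Rcor3 measured 7.87, 8.0 and 7.82 in Fog1+/+ and 8.76, 8.32 and 8.24 in Fog1ki/ki, a log2 difference of 0.54 (limma adjusted p = 0.192, SE 0.14). The genotypes of Rcor3 did not overlap.

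Its paralog Rcor1 measured 9.81, 9.54 and 9.89 against 10.27, 9.95 and 9.96, a log2 difference of 0.31 (limma adjusted p = 0.485, SE 0.13). Kdm1a, the histone demethylase of the same complex, measured 9.55, 9.45 and 9.47 against 9.24, 9.28 and 9.28, a log2 difference of -0.22 (limma adjusted p = 0.433, SE 0.09). Arid4a, a SIN3 component, had the lowest log2 difference of the list at -0.27 (limma adjusted p = 0.546, SE 0.12), with overlapping arrays.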
